A study of Mus musculus with 8 samples.

Results

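The ETS1 probes are a designed set of DNA oligonucleotides on a microarray of universal design, named in the files for ETS1 binding scores. They were taken by that name and comprised 10150 spots with 1382 different sequences, of 122095 different sequences printed on the array. The study applied an antibody against cyclobutane pyrimidine dimers (CPDs) or an antibody against 6-4 photoproducts (6-4PPs) to arrays that were UV-irradiated or not. The 8 arrays form 4 groups of 2, namely CPD UV and CPD Non-UV (dilution 1:400) and 6-4PP UV and 6-4PP Non-UV (dilution 1:80). The antibodies were raised in mouse, and the DNA is synthetic, with no DNA-binding protein named in the labels of these arrays. How strongly the arrays were irradiated, how they were stained, and how and when the DNA was made double-stranded were not given in the sources used here.

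ETS factors, of which ETS1 is a member, bind sites with the core GGAA, whose complement reads TTCC. UV light joins adjacent pyrimidines of the same strand, so the pyrimidine strand of an ETS site can carry a lesion at each of its neighbouring TT, TC, CT or CC bases, called dipyrimidine steps here. CPDs tie the pyrimidines together in a ring and are known to form readily at TT. 6-4PPs tie them through a single bond and are known to form readily at TC. ETS sites are known from cellular maps of UV damage as places where lesions build up when the factor is bound, which makes the signal of the same letters as free DNA a baseline.

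Each ETS1 probe had 60 bases. The 16 leading bases varied, and bases 17 to 60 were the same in all 1382 sequences and held 0 dipyrimidine steps on either strand. All dipyrimidine steps of a probe therefore lie in its leading bases. The probes below show the 16 leading bases of the sequences on which the results turn, 5′ to 3′ as printed, with every core (GGA and the base after it, on either strand) in capitals. A typical probe is the one nearest its class median for the CPD UV effect, defined below. It need not be typical for 6-4PP, as the ATCC probe had a 6-4PP UV effect of 0.87 and its class median was 0.20.
shared part of every ETS1 probe: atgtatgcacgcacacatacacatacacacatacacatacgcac
ETS site, TTCC printed: tatgcacTTCCggtgt
ETS site, GGAA printed: tatgcacaccGGAAgt
typical TTCC probe: tatgcatacTTCCcgt
typical GGAA probe: atgcacccGGAActgt
typical ATCC probe: tatgcatcATCCgggt
typical GGAT probe: atgcaccGGATgccgt
typical GTCC probe: gtatgcggcGTCCggt
typical GGAC probe: gtatgcaccGGACggt
highest UV effect with both antibodies: atgcattacTTCCtgt
TTTCC after A, bright with the CPD antibody: tatgcatTTCCgttgt
TTTCC after G, bright with the CPD antibody: tatgcgtTTCCgttgt
ATCC on both strands, bright with the 6-4PP antibody: tatgcatcATCCGGAT

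By core, named here by its pyrimidine strand, 1210 sequences held a single core. TTCC was the core of 720 sequences, with TTCC printed in 357 and GGAA printed in 363. ATCC was the core of 420 sequences, printed in 211 and on the complement strand in 209. GTCC was the core of 70 sequences, 35 in each orientation, and no sequence had CTCC as its only core. The other 172 sequences held 2 or more cores. The files name 725 sites, each printed in both orientations at 7 spots, and 68 sequences served 2 sites. Of the sequences, 404 were also printed under other names, at 1461 further spots that entered the means (7 to 47 spots per sequence, median 7). Every sequence held at least 1 TC and 1 CC step, 468 held no TT, and the total over both strands ran from 2 to 8 steps with a median of 5. Sites that differ by a base or a flank share most of their letters, so the sequences are not independent of each other.

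Replicate arrays of a UV group ranked the ETS1 probes almost identically (r across the 1382 sequences 0.983 for CPD UV and 0.984 for 6-4PP UV, given as a description), while the Non-UV arrays did not (0.0216 for CPD Non-UV and 0.0117 for 6-4PP Non-UV). Arrays that carry the same replicate number were not independent between antibodies. The difference between replicate 1 and replicate 2, taken sequence by sequence, correlated at 0.707 between the CPD UV and 6-4PP UV pairs and at 0.765 between the CPD Non-UV and 6-4PP Non-UV pairs over all 122095 sequences. It correlated at 0.000791 and -0.00323 between UV and Non-UV arrays of an antibody. With the median in place of the mean over the spots of a sequence these values were 0.189 and 0.324 for the ETS1 probes, against 0.655 and 0.768 with the mean. Each antibody was therefore also fitted alone, and that count is given where it moved by over 1.5 times. Nothing in the labels says that replicate arrays came from separate irradiations, so p-values measure the spread between these arrays.

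Before any comparison with other probes, nearly all ETS1 probes stained more strongly after UV with both antibodies. The median intensity of the ETS1 probes was 2546 and 2432 on the CPD UV arrays, against 1248 and 1053 on the CPD Non-UV arrays. It was 5664 and 5736 on the 6-4PP UV arrays, against 1589 and 1281 on the 6-4PP Non-UV arrays. Without centring, 1336 of 1382 were higher after UV with the CPD antibody, where 92.0% of all printed sequences were, and 1375 with the 6-4PP antibody, where 96.0% were (limma, adjusted p under 0.05). The 550 printed probes that hold no dipyrimidine step had medians of 1617 and 1603 on the CPD UV arrays and 1954 and 1951 on the 6-4PP UV arrays, against 1219 and 1048 on the CPD Non-UV arrays and 1497 and 1246 on the 6-4PP Non-UV arrays. The lowest ETS1 probe, at 1472 on the first CPD UV array, lay below the step-free median, and the highest reached 16987.

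All further values are log2 intensities relative to the median of all printed sequences on the same array, and a UV effect is the UV mean minus the Non-UV mean on that scale. The ETS1 probes as a whole lay below the typical printed sequence with both antibodies. Their median stood at -0.52 ± 0.052 on the CPD UV arrays and 0.018 ± 0.0036 on the CPD Non-UV arrays (SD, n = 2 each), a UV effect of -0.53. It stood at -0.22 ± 0.014 on the 6-4PP UV arrays and 0.065 ± 0.010 on the 6-4PP Non-UV arrays (SD, n = 2 each), a UV effect of -0.28. For each antibody p was 0.333 in an exact two-sided permutation test, the smallest that 2 arrays against 2 can give. Step-free probes had UV effects of -1.14 for CPD and -1.76 for 6-4PP, so the median ETS1 probe lay between them and the typical sequence.

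By sequence, 1144 of the 1382 ETS1 probes passed the test for CPD, where 79.7% of all sequences passed. Of these, 375 were higher and 769 lower, against 39.5% and 40.2% of all sequences. For 6-4PP 1086 passed, where 76.4% of all sequences did, with 378 higher and 708 lower (36.4% and 39.9% of all sequences). The share of ETS1 probes that passed was thus close to that of the array, and lower calls were the more frequent among them. Quantile normalisation left 60 calls for CPD, 3 of them higher, and 41 for 6-4PP, all lower.

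The CPD signal differed by the first letter of the core, and printed TTCC probes stood above printed ATCC and GTCC probes. TTCC probes printed with the pyrimidine strand had a median intensity of 5637 and 5085 on the CPD UV arrays, against 1263 and 1058 on the CPD Non-UV arrays. Printed ATCC probes had 1888 and 1860 on the CPD UV arrays, against 1259 and 1052 on the CPD Non-UV arrays. Printed GTCC probes had 1655 and 1691 on the CPD UV arrays, against 1273 and 1052 on the CPD Non-UV arrays. On the CPD UV arrays the TTCC median was thus 3.49 and 3.17 times the step-free median, and the ATCC and GTCC medians were 1.02 to 1.17 times it. Of the 357 printed TTCC probes 266 were higher and 1 lower than the typical sequence after UV, of the 211 printed ATCC probes 9 were higher and 188 lower, and of the 35 printed GTCC probes 1 was higher and 30 lower.

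With the 6-4PP antibody the core letters ranked differently, with ATCC near TTCC and GTCC far below both. Printed TTCC probes had a median intensity of 8915 and 9161 on the 6-4PP UV arrays, against 1628 and 1294 on the 6-4PP Non-UV arrays. Printed ATCC probes had 7983 and 8127 on the 6-4PP UV arrays, against 1614 and 1285 on the 6-4PP Non-UV arrays. Printed GTCC probes had 2524 and 2604 on the 6-4PP UV arrays, against 1597 and 1273 on the 6-4PP Non-UV arrays. The printed GTCC medians were 1.29 and 1.33 times the step-free median, although the core holds a TC and a CC step, and the printed ATCC medians, with the same steps, were 4.08 and 4.16 times it. All but 1 of the 35 printed GTCC probes passed as lower for 6-4PP, and of the 211 printed ATCC probes 82 passed as higher and 25 as lower.

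Pairs of ETS1 probes that differ by a single base in the core test these letters directly. There were 3453 single-base pairs among 1378 of the probes, and 871 passed for CPD, against 23.0% of all single-base pairs on the array, and 866 for 6-4PP, against 30.1%. Among 175 pairs with TTCC against ATCC printed, TTCC was higher for CPD in 164 and lower in 0, with a median difference of 1.40. For 6-4PP the same 175 pairs gave 20 higher and 32 lower, with a median of 0.15. Among 35 pairs with ATCC against GTCC printed, 0 passed for CPD and all 35 were higher with ATCC for 6-4PP, with a median of 1.71. Among 26 pairs with TTCC against GTCC printed, TTCC was higher in 24 for CPD and in all 26 for 6-4PP, with medians of 1.44 and 1.84. No single-base pair passed for either antibody under quantile normalisation (0 of 3453), and the 6-4PP arrays fitted alone gave 511 calls. For 6-4PP 550 pairs passed without UV replicate 1 and 560 without UV replicate 2.

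The largest single-base differences were of different kinds for the antibodies. The 4 largest for CPD all set ATTTCC against ATATCC in the printed strand, and the 4 largest for 6-4PP all set CTTCC against CGTCC or GTTCC. The lines below show 2 of the pairs, with the changed base in capitals and positions counted from 1 at the 5′ end of the probe.
probe with ATTTCC printed: tatgcacatTtccggt
probe with ATATCC printed: tatgcacatAtccggt
ETS site, with CTTCC printed: tatgcacTtccggtgt
probe with CGTCC printed: tatgcacGtccggtgt
The ATTTCC probe had an intensity of 13384 and 12385 on the CPD UV arrays, against 1392 and 1053 on the CPD Non-UV arrays. The ATATCC probe, which differs by A10T read from ATATCC to ATTTCC, had 1775 and 1564 on the CPD UV arrays, against 1325 and 1110.0 on the CPD Non-UV arrays. The difference of their UV effects was 2.95 ± 0.14 for CPD (SE, limma adjusted p = 0.000322) and 0.68 ± 0.14 for 6-4PP (SE, limma adjusted p = 0.0121). It was larger for CPD than for 6-4PP by 2.27 ± 0.19 (SE, limma adjusted p = 0.00805). The number of ETS1 single-base pairs past this test of the antibody difference was less stable. It was 780 of 3453, where 86981 of all 638307 pairs passed. With the scanner intensity it was 393, where 31135 of all pairs passed, and it also fell with each array left out. The other 3 pairs of this kind (A9T, A8T and A10T) differed by 2.77 to 2.78 for CPD and by 0.58 to 0.63 for 6-4PP.

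A pair with the ETS site was among the 4 largest single-base differences for 6-4PP. The probe tatgcacTtccggtgt had an intensity of 10614 and 11136 on the 6-4PP UV arrays, against 1649.7 and 1385 on the 6-4PP Non-UV arrays. The probe tatgcacGtccggtgt, which differs by G8T read from CGTCC to CTTCC, had 2509.8 and 2416 on the 6-4PP UV arrays, against 1608 and 1585 on the 6-4PP Non-UV arrays. The UV effects differed by 2.22 ± 0.15 for 6-4PP (SE, limma adjusted p = 0.000505) and by 1.83 ± 0.15 for CPD (SE, limma adjusted p = 0.000507). The change G7C before TTCC, from tatgcaGttccggtgt to tatgcaCttccggtgt, also went with a large 6-4PP difference of 2.21 ± 0.31 (SE, limma adjusted p = 0.00314), while the CPD difference of 0.80 ± 0.31 did not pass (SE, limma adjusted p = 0.128). The GTTCC probe had 3019.8 and 2967 on the 6-4PP UV arrays, against 2639.7 and 1404 on the 6-4PP Non-UV arrays, so its Non-UV values lay below both UV values but far apart from each other.

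The base before the core separated the antibodies further. With the core TTCC printed, a T before it gave the highest CPD medians and a G before it the lowest 6-4PP medians. TTTCC probes (102 sequences) had a median intensity of 9734 and 8353 on the CPD UV arrays and 7132 and 7350.4 on the 6-4PP UV arrays. CTTCC probes (188 sequences), the letters of the classical ETS site CCGGAAG read on its other strand, had 5037 and 4661 on the CPD UV arrays and 10159 and 10537 on the 6-4PP UV arrays. ATTCC probes (31 sequences) had 8853 and 7752 on the CPD UV arrays and 10197 and 10334 on the 6-4PP UV arrays, high with both antibodies. GTTCC probes (36 sequences) had 3847 and 3737 on the CPD UV arrays and 2952 and 3059.8 on the 6-4PP UV arrays. Relative to the array median, the UV effects for CPD were 1.31 for TTTCC, 1.18 for ATTCC, 0.41 for CTTCC and 0.074 for GTTCC. The UV effects for 6-4PP were 0.039 for TTTCC, 0.57 for ATTCC, 0.54 for CTTCC and -1.20 for GTTCC.

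Single-base pairs at this place compare these letters within the same flanks. TTTCC exceeded CTTCC for CPD in 62 of 92 pairs, by a median of 0.86, and fell below it for 6-4PP in 43 of the 92, by a median of -0.44. CTTCC exceeded GTTCC for 6-4PP in all 17 pairs, by a median of 1.68, while 0 of the 17 passed for CPD. ATTCC exceeded GTTCC in all 8 pairs with both antibodies, by medians of 1.21 for CPD and 1.82 for 6-4PP. TTTCC against ATTCC rested on 2 pairs, of which 0 were higher and 1 lower for CPD, with a median of -0.27, although the CPD median of all TTTCC probes was the higher. With GGAA printed, the differences were smaller. TTTCC exceeded CTTCC for CPD in 58 of 94 pairs, by a median of 0.68, and CTTCC exceeded GTTCC for 6-4PP in 10 of 16 pairs and fell below it in 3, with a median of 0.58.

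At the next base out, the probes low for 6-4PP again carried a G. The 56 printed ATTTCC probes had UV effects of 1.54 for CPD and 0.20 for 6-4PP, and the 36 printed GTTTCC probes had 0.60 for CPD and -1.16 for 6-4PP. All 56 ATTTCC probes were higher than the typical sequence for CPD, and all 36 GTTTCC probes were lower for 6-4PP. Among 30 pairs that differ by this base, ATTTCC was higher in 27 for CPD and in 30 for 6-4PP, by medians of 1.00 and 1.41. For CPD a low value was not particular to G. The 5 printed CTTTCC probes had UV effects of 0.71 for CPD and 0.13 for 6-4PP. In 2 pairs of CTTTCC against GTTTCC, 0 passed for CPD and 2 were higher for 6-4PP. Before CTTCC the same base mattered less. ACTTCC exceeded GCTTCC in 2 of 42 printed pairs for CPD and in 7 for 6-4PP, by medians of 0.23 and 0.34.

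Probes with GTTTCC and ATTTCC printed illustrate the gap between the antibodies. Both probes given here also hold a TT step in the flank after the core. The probe tatgcgtTTCCgttgt had an intensity of 8141 and 8080.2 on the CPD UV arrays, against 1292 and 1496 on the CPD Non-UV arrays. It had 3107 and 3659 on the 6-4PP UV arrays, against 1698 and 1673 on the 6-4PP Non-UV arrays. The probe tatgcatTTCCgttgt, which reads ATTTCC in place of GTTTCC, had 14820 and 12971 on the CPD UV arrays and 8744 and 8949 on the 6-4PP UV arrays, against 1239 and 1058 on the CPD Non-UV arrays and 1639 and 1309 on the 6-4PP Non-UV arrays. Both stood above all Non-UV values with both antibodies, and the GTTTCC probe was the lower of the pair on every UV array.

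Single-base pairs passed less often at the base after the core and the next one out than in the core or at the bases just before it. Of the single-base pairs that change the core, 56.3% passed for CPD and 39.9% for 6-4PP (476 pairs). At the base before the core the shares were 42.4% and 41.9% (413 pairs), and at the next base out 22.3% and 22.0% (404 pairs). At the base after the core they were 4.23% and 10.1% (189 pairs), and at the next base out 6.78% and 13.0% (369 pairs). Farther from the core, on either side, they were 15.8% and 9.47% (929 pairs), for CPD more than just after the core. TTCCT exceeded TTCCG in 6 of 58 printed pairs for CPD and in 9 for 6-4PP, by medians of 0.11 and 0.10. At the base after CG the antibodies differed in which letter went with a higher signal. With the purine strand printed, TCGGAT exceeded CCGGAT in 8 of 8 pairs by a median of 0.83, and TCGGAA exceeded CCGGAA in 7 of 9 pairs by a median of 0.92, while 0 of these pairs passed for CPD. On the pyrimidine strand these pairs differ in the base after ATCCG and TTCCG, and the T makes a TC step on the printed strand in place of a CC step. The 6-4PP difference was also seen, though smaller, with the pyrimidine strand printed. There TTCCGA exceeded TTCCGG in 5 of 9 pairs by a median of 0.46, and ATCCGA exceeded ATCCGG in 1 of 10 by a median of 0.35. With the pyrimidine strand printed, a T at this place went with a higher CPD signal in some pairs. ATCCGT exceeded ATCCGG for CPD in 4 of 8 pairs by a median of 0.86, and TTCCGT exceeded TTCCGG in 5 of 20 by a median of 0.33, while 0 of these pairs passed for 6-4PP. With the purine strand printed, the same changes passed for CPD in 0 of 10 and 0 of 22 pairs.

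The ATCC core differed from TTCC in how the antibodies compared. Of the 357 printed TTCC probes, 170 were higher for CPD than for 6-4PP, 11 were lower and 176 did not pass. The 188 printed CTTCC probes among them gave 10 higher and 11 lower. Among the 211 printed ATCC probes, 183 were lower for CPD than for 6-4PP and 3 higher in the test of the difference between antibodies, where 18.1% and 33.6% of all sequences were. The base before ATCC made little difference to the CPD values, with UV effects of -0.93 for CATCC (144 sequences) and -0.99 for TATCC (62 sequences). For 6-4PP the printed CATCC probes had a UV effect of 0.29 and the printed TATCC probes -0.19, and TATCC fell below CATCC in 22 of 61 single-base pairs and exceeded it in 0. Probes with ATCC on both strands, as in ATCCGGAT, were at 1893 and 1835 on the CPD UV arrays and 10636 and 10404 on the 6-4PP UV arrays (median of 31 sequences), against 1251 and 1052 on the CPD Non-UV arrays and 1625 and 1273 on the 6-4PP Non-UV arrays. Their UV effects were -0.95 for CPD and 0.59 for 6-4PP, and 27 of the 31 passed as higher for 6-4PP while 26 passed as lower for CPD.

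The clearest case of that kind was tatgcatcATCCGGAT. It had an intensity of 2581 and 2229 on the CPD UV arrays, against 1268 and 1030 on the CPD Non-UV arrays. It had 18764 and 18404 on the 6-4PP UV arrays, against 1587 and 1250.3 on the 6-4PP Non-UV arrays. The similar probe tatgcattATCCGGAT, whose flank holds a TT step, had 10755 and 10084 on the CPD UV arrays and 20749 and 20818 on the 6-4PP UV arrays, against 1295 and 1097 on the CPD Non-UV arrays and 1615 and 1451 on the 6-4PP Non-UV arrays. It was high with both antibodies on every UV array.

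Cores on both strands were rarer for TTCC. The 8 probes with TTCC on both strands had UV effects of 1.12 for CPD and 0.64 for 6-4PP, and all 8 passed as higher for CPD. The 25 probes with TTCC printed and ATCC on the complement strand had 0.77 for CPD and 0.67 for 6-4PP. The 25 probes of the opposite arrangement, with ATCC printed and TTCC on the complement strand, had -0.21 for CPD and 0.16 for 6-4PP.

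The orientation of the site changed the signal of most TTCC sites with both antibodies. All 725 sites were printed in both orientations with the same shared part, so the pairs hold the same site with its strands exchanged. A pair is given as the orientation with more steps on the printed strand minus the other. Pairs with equally many printed steps, 72 of the ETS1 pairs, were ordered by the alphabet, so their direction has no meaning. For CPD 442 of the 725 pairs passed, where 42.3% of all orientation pairs on the array did, with 417 higher and 25 lower (36.0% and 6.29% on the array). For 6-4PP 588 passed, where 63.8% did, with 557 higher and 31 lower (55.0% and 8.79% on the array). These counts include the pairs ordered by the alphabet. In the 653 pairs with unequal printed steps, the orientation with more of them was higher in 409 and lower in 14 for CPD. It was higher in 532 and lower in 11 for 6-4PP. Under quantile normalisation 0 of 725 passed for either antibody.

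Sites are counted by core here only if they held a single core and had more printed steps with its pyrimidine strand printed. For the 370 such TTCC sites, printing the pyrimidine strand went with a higher CPD signal in 337 and a lower signal in 1, with a median difference of 1.09. For 6-4PP the same sites gave 324 higher and 2 lower, with a median of 1.12. These medians correspond to changes from Non-UV to UV that were 2.12 and 2.17 times those of the other orientation. The 188 ATCC sites showed the strand difference with the 6-4PP antibody, higher in 162 and lower in 2 with a median of 0.76, and little of it with the CPD antibody, higher in 23 and lower in 11 with a median of 0.082. The test of the difference between antibodies gave 111 of the 188 ATCC sites as lower for CPD and 2 as higher, where 16.9% and 10.1% of all orientation pairs were. With the antibodies paired by replicate number, the number of ETS1 orientation pairs past this test was 416, where 49.3% of all orientation pairs passed, against 242 in the unpaired fit, where 27.0% did. The 30 GTCC sites gave 4 higher and 1 lower for CPD, and 5 higher and 2 lower for 6-4PP.

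Within TTCC sites the strand difference for 6-4PP followed the base before the core. It had a median of 1.24 after C (200 sites), 1.23 after A (32 sites), 0.80 after T (108 sites) and 0.29 after G (30 sites). For CPD the medians were 1.04 after C, 1.30 after A, 1.19 after T and 0.82 after G. Of the 30 sites with G before the core, 26 were higher for CPD in the TTCC orientation and 14 higher for 6-4PP. The 72 sites with equally many steps on each strand had medians of -0.021 for CPD and 0.024 for 6-4PP. Their direction was set by the alphabet, so these medians cannot show whether the strands differ. Single sites did differ, with 8 higher and 11 lower for CPD and 25 higher and 20 lower for 6-4PP. Over all orientation pairs on the array 42.3% passed for CPD and 63.8% for 6-4PP.

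The largest strand difference for CPD was not in a TTCC site. It was 2.03 ± 0.23 (SE, limma adjusted p = 0.000322) for tatgcATCCGGATtgt against tatgcaATCCGGATgt, with ATCC on both strands. The largest for 6-4PP was 1.80 ± 0.078 (SE, limma adjusted p = 3.92e-05) for tatgcaTTCCTTCCgt against tatgcacGGAAGGAAt, where the TTCC core is repeated. Sites with a single TTCC core were also among the largest differences, and the lines below give such a site for each antibody in both orientations.
TTCC printed, CPD: tatgcaTTCCggttat
GGAA printed, CPD: tatgcataaccGGAAt
TTCC printed, 6-4PP: gtatgcacacTTCCgt
GGAA printed, 6-4PP: atgcacGGAAgtgtgt
The first site had an intensity of 15886 and 14011 on the CPD UV arrays with TTCC printed, and 4093 and 3720.2 with GGAA printed. The CPD Non-UV arrays had 1424 and 1019.7 with TTCC printed, and 1525 and 1035 with GGAA printed. The UV effects differed by 1.99 ± 0.15 (SE, limma adjusted p = 6.41e-05). The other site had 12598 and 14212 on the 6-4PP UV arrays with TTCC printed, and 3566 and 3714 with GGAA printed. The 6-4PP Non-UV arrays had 1588 and 1282 with TTCC printed, and 1463 and 1223 with GGAA printed, and the UV effects differed by 1.79 ± 0.088 (SE, limma adjusted p = 3.92e-05). On no UV array did the orientations of either site come near each other.

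Sites with the full consensus ACCGGAAGT, on either strand, were present in 16 sequences, and the 4 with the most spots had similar values within an orientation. The probe tatgcacTTCCggtgt (31 spots) had an intensity of 4911 and 4711 on the CPD UV arrays, against 1240.5 and 1037 on the CPD Non-UV arrays. Its UV effects were 0.43 ± 0.084 for CPD (SE, limma adjusted p = 0.00276) and 0.57 ± 0.084 for 6-4PP (SE, limma adjusted p = 0.00083), and the antibodies did not differ beyond error (-0.13 ± 0.12, limma adjusted p = 0.383). The probe tatgcacTTCCggtat (15 spots) had UV effects of 0.36 for CPD and 0.56 for 6-4PP, and the CPD effect no longer passed without CPD UV replicate 2 (0.32) or CPD Non-UV replicate 2 (0.35). With GGAA printed, tatgcacaccGGAAgt (23 spots) had 2358 and 2261 on the CPD UV arrays, against 1232 and 1051 on the CPD Non-UV arrays, and UV effects of -0.63 for CPD and -0.48 for 6-4PP. The probe tatgcaccGGAAgtgt (15 spots) had -0.70 for CPD and -0.64 for 6-4PP. These 4 consensus probes thus stood above the typical sequence with the pyrimidine strand printed and below it with the purine strand printed. Quantile normalisation turned the 6-4PP effect of tatgcacTTCCggtgt to -0.15 and those of tatgcacTTCCggtat to -0.31 for CPD and -0.072 for 6-4PP.

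The probe with the highest UV effects was brighter than these 4 consensus probes on every UV array. The probe atgcattacTTCCtgt had an intensity of 15918 and 14714 on the CPD UV arrays, against 1254 and 962 on the CPD Non-UV arrays. It had 22951 and 24276 on the 6-4PP UV arrays, against 1631 and 1287 on the 6-4PP Non-UV arrays. Its UV effects, 2.15 ± 0.091 for CPD and 1.75 ± 0.091 for 6-4PP (SE, limma adjusted p = 1.56e-05 and 3.19e-05), were the highest of the ETS1 probes with both antibodies. The probes tatgcattacTTCCgt and atgcattacTTCCcgt, which share its letters up to the core but not after it, had UV effects of 2.05 and 1.93 for CPD and 1.61 and 1.67 for 6-4PP. The first of these was the brighter by intensity, with 16987 and 16281 on the CPD UV arrays, against 1297 and 1264 on the CPD Non-UV arrays. The step TT in ATTAC lies outside the core in all 3. The probe atgcaTTCCGGATtgt, with TTCC printed and ATCC on the complement strand, had 2.04 for CPD and 1.49 for 6-4PP.

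The lowest effects rested in part on single Non-UV arrays. The probe gtatgcGTCCggtcgt, lowest for CPD at -1.85 ± 0.39 (SE, limma adjusted p = 0.00432), had an intensity of 1598 and 1651 on the CPD UV arrays, against 1424 and 2430.0 on the CPD Non-UV arrays. Its 8 spots had an SD of 2.35 log2 units on the second Non-UV array and 0.33 on the first. The probe atgcacGGAAacatgt, lowest for 6-4PP at -2.01 ± 0.33 (SE, limma adjusted p = 0.00134), had 2183 and 2051 on the 6-4PP UV arrays, against 1480 and 2085 on the 6-4PP Non-UV arrays, with a spot SD of 2.09 on the second Non-UV array. The probe tatgcggcGGACgtgt had no such spread, with 1987 and 1994 on the 6-4PP UV arrays against 1614 and 1355 on the 6-4PP Non-UV arrays and a UV effect of -1.85 ± 0.083 (SE, limma adjusted p = 3.19e-05).

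Between antibodies, 791 of the 1382 ETS1 probes differed in their UV effect, where 51.7% of all sequences did. CPD exceeded 6-4PP in 417 and fell below it in 374 (33.6% and 18.1% of all sequences). Without centring, which leaves in a UV effect of the array median of 1.65 for CPD and 2.28 for 6-4PP, 75 were higher and 553 lower for CPD (6.58% and 27.9% of all sequences), so the balance of directions is relative to the typical sequence of each array. With the antibodies paired by replicate number 877 differed, 456 of them higher for CPD, where 64.2% of all sequences did, and under quantile normalisation 0 did. All 102 printed TTTCC probes and 35 of the 36 printed GTTCC probes were higher for CPD, and of the 188 printed CTTCC probes 10 were higher and 11 lower. Without centring 56 of the TTTCC and 6 of the GTTCC probes were higher and 0 lower, and 0 of the CTTCC probes were higher and 67 lower. The largest difference was 2.17 ± 0.26 in tatgcgtTTCCgttgt (SE, limma adjusted p = 0.000974), and the opposite extreme was -2.02 ± 0.12 in tatgcatcATCCGGAT (SE, limma adjusted p = 0.000281). The probe gtatgcGTCCggttat, with a difference of 2.14, has a GTCC core and a TT step in its flank, and had 6961 and 5994 on the CPD UV arrays, against 1246 and 995 on the CPD Non-UV arrays.

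The number of TT steps ordered the CPD values. Probes with 0, 1, 2 and 3 TT steps over both strands had median UV effects of -1.02, -0.069, 0.48 and 1.34 for CPD (468, 578, 293 and 39 sequences), and 4 sequences had 4. Of the 468 probes without TT, 464 passed as lower for CPD and 0 as higher, and their median signal was 1.11 and 1.10 times that of the step-free probes on the CPD UV arrays. For 6-4PP the medians over the same classes were -0.25, -0.26, -0.46 and -0.043, with no such order, and probes without TT were at 2.96 and 3.01 times the step-free probes on the 6-4PP UV arrays. By the total number of steps the CPD medians ran from -1.04 at 2 steps to 0.32 at 7, and the 6-4PP medians from -0.60 at 2 steps to 0.28 at 7.

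A regression on the counts of TT, TC, CT and CC on the printed and on the complement strand, fitted over all printed sequences, described the ETS1 probes far better for CPD than for 6-4PP. It accounted for 78.2% and 77.4% of their variance on the CPD UV arrays and for 27.1% and 29.1% on the 6-4PP UV arrays. The median residual of the ETS1 probes was -0.28 and -0.27 on the CPD UV arrays, so they lay below the values the regression gave for their steps. It was -0.041 and -0.042 on the 6-4PP UV arrays. Whether other sequences with the same step counts also lie below the regression was not tested. The 6-4PP residuals went both ways by core. Printed ATCC probes lay above the regression by 0.56 on both 6-4PP UV arrays, while printed GTTCC probes lay below it at -1.21 and -1.16 and printed GTCC probes at -1.05 and -1.03. With the steps of both strands summed, the regression accounted for 51.3% and 48.4% of the variance on the CPD UV arrays and gave -5.43% and -5.76% on the 6-4PP UV arrays, less than a constant would.

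The same letters were also compared in printed sequences outside the ETS1 set that hold a single core of these types. The contrast of printed TTCC minus printed ATCC was 1.51 in the ETS1 probes and 1.42 in the other sequences for CPD, and 0.16 and 0.076 for 6-4PP, where a contrast of means in place of medians gave -0.060 in the ETS1 probes. GTTCC minus CTTCC, printed, was -1.74 in the ETS1 probes and -1.37 in the others for 6-4PP. TTTCC minus CTTCC, printed, was 0.90 in the ETS1 probes and 0.75 in the others for CPD. GTTTCC minus ATTTCC, printed, was -1.36 in the ETS1 probes and -1.20 in the others for 6-4PP. Other contrasts departed further between the sets. TATCC minus CATCC, printed, was -0.48 in the ETS1 probes and 0.062 in the others for 6-4PP and -0.056 and 0.41 for CPD. TTCCT minus TTCCG for CPD was 0.023 in the ETS1 probes and 0.24 in the others with the pyrimidine strand printed, and -0.049 and 0.29 with the purine strand printed. ATCC minus GTCC, printed, was 1.64 in the ETS1 probes and 1.03 in the others for 6-4PP, and 0.17 and 0.44 for CPD. TTCC minus ATCC with the purine strand printed was -0.20 in the ETS1 probes and -0.56 in the others for 6-4PP. The flanks of the other sequences vary freely, and these differences between sets were not tested.

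The place of the core within the probe changed little. Printed CTTCCG probes with the core starting at base 7, 8, 9, 10 or 11 had CPD UV effects of 0.40, 0.36, 0.35, 0.38 and 0.53 (12, 28, 40, 19 and 18 sequences). Their 6-4PP UV effects were 0.55, 0.45, 0.37, 0.52 and 0.61. Probes with different starts also differ in their flanks.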

How the data were processed

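Per the file headers, each deposited file gives fluorescence intensities, on a linear scale, for the 180880 spots of 1 array. The authors' adjusted intensity scales the scanner intensity, from which no background was subtracted, to a level common to the array and corrects it for the median of neighbouring spots. No source used here names the software. No spot carried a flag (0), and 7 to 11 spots of the ETS1 probes per array stood at the scanner ceiling and were kept. The number of arrays, 2 per group, limits the precision.

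Here, spots were taken as ETS1 probes by name, log2 values of all spots of a sequence were averaged, and each array was centred on its median over 122095 sequences. A linear model with empirical Bayes variances (limma 3.58.1, R 4.3.3) was fitted over all sequences and 8 arrays, with Benjamini-Hochberg adjustment over all sequences and a threshold of 0.05. The same model was fitted to 638307 single-base pairs (3453 of them between ETS1 probes) and 2832 orientation pairs (725). The fits were tested on simulated data. Classes of under 5 sequences were counted but not described. No columns of other samples were present (0).

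Sequences are named by rule: per antibody the 6 highest and 4 lowest effects past the threshold with UV and Non-UV arrays apart, the 4 largest antibody differences each way, the 4 largest single-base and 3 largest orientation pairs, the 4 ACCGGAAGT probes with the most spots, and a typical probe per core and orientation. Typical probes were those nearest the class median of the CPD UV effect. Members, classes and lists were chosen with earlier results of these data known. Replicate numbers paired arrays across antibodies in the data (deviations correlated at 0.707 and 0.765) but not UV with Non-UV arrays (0.000791 and -0.00323), and the fit without a block is reported. Alternatives were the scanner intensity, no centring, quantile normalisation, an offset of 100, the median of spots, saturated spots or the dimmest 25% of sequences left out, trended robust variances, each antibody alone, the replicate number as a block, and each array left out.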

Additional observations from a re-analysis of the deposited data

Results flagged for a closer look

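The UV effect differed between the antibodies in 791 ETS1 probes by the test of the difference itself (limma, adjusted p under 0.05), where 51.7% of all printed sequences differed. The 4 probes with the largest excess of CPD over 6-4PP were tatgcgtTTCCgttgt (2.17), gtatgcGTCCggttat (2.14), tatgcacagtTTCCgt (2.05) and gtatgcgttTTCCggt (2.02), on the log2 scale. Of these, 3 read GTTTCC or GTTTTCC on the printed strand. The GTCC probe holds a TT step in its flank, as does tatgcgtTTCCgttgt. The 4 probes with the largest excess of 6-4PP over CPD were tatgcatcATCCGGAT (-2.02), atgcacATCCGGATgt (-2.02), atgcatcacATCCtgt (-2.01) and atgcatcATCCggcgt (-1.92). All 4 have ATCC on the printed strand. With 2 arrays in each group, single samples could not be tested as outliers.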

How the results depend on the processing

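The antibody difference in single-base pairs fell from 780 calls to 393 under the scanner intensity. Every other number of probes or pairs past the threshold in either direction kept within 1.5 times its reported value under the scanner intensity, no centring, an offset of 100, the median of spots, saturated or dim sequences left out, trended robust variances and the replicate number as a block, where those were run. The directions moved more: without centring 1336 probes were higher and 0 lower for CPD, 1375 and 0 for 6-4PP, and 75 and 553 for the antibody difference, and with the dimmest 25% of sequences left out 373 were higher and 475 lower for CPD and 372 and 405 for 6-4PP. Quantile normalisation left 60 calls for CPD, 41 for 6-4PP, and 0 for the antibody difference, the single-base pairs, the orientation pairs of each antibody and their antibody difference. The cause was not tested. The 6-4PP arrays alone gave 511 single-base pairs, with fewer arrays to estimate the spread. Pairing the antibodies by number, a replicate block chosen after seeing the data, gave 416 orientation pairs for the antibody difference. With the replicate block of UV and Non-UV arrays, which changed no other count by over 1.5 times, 1152 probes passed for CPD, 1085 for 6-4PP and 798 for the difference. That filter on dim sequences left 1082 ETS1 probes and their median 6-4PP effect was 0.085, since the filter removes the probes with the lowest signal.

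Leaving out each array gave 1038 to 1166 probes for CPD, 932 to 1068 for 6-4PP and 667 to 761 for the difference. It gave 622 to 887 single-base pairs for CPD, 550 to 753 for 6-4PP, 417 to 453 orientation pairs for CPD, 533 to 582 for 6-4PP and 162 to 238 for the difference. The median effect ranged from -0.57 to -0.50 for CPD and from -0.29 to -0.27 for 6-4PP. Of 40 class contrasts, 40 kept their sign with an offset of 100, 39 with the scanner intensity, 37 with quantile normalisation and 37 with means for medians, and all 160 values with an array left out did.

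Without centring, the lowest CPD effect, of gtatgcGTCCggtcgt, was -0.20 and no longer passed, and the following effects below the array median became rises. They were 0.037, 0.062 and 0.14 for CPD in gtatgcgcGGATgcat, tatgcaccacATCCgt and gtatgcgcGGATgcgt, and 0.27, 0.32, 0.39 and 0.43 for 6-4PP in atgcacGGAAacatgt, gtatgcgcGGACgtat, tatgcagccGGAAcgt and tatgcggcGGACgtgt. For CPD and 6-4PP they were 1.02 and 1.80 in tatgcacaccGGAAgt, 0.95 and 1.64 in tatgcaccGGAAgtgt, 0.65 and 1.81 in atgcaccGGATgccgt, 0.62 and 0.82 in gtatgcaccGGACggt, 0.51 and 0.96 in gtatgcggcGTCCggt, and 1.11 and 1.19 in atgcacccGGAActgt, and 0.71 for CPD in tatgcatcATCCgggt. Quantile normalisation turned 4 effects, to -0.15 for 6-4PP in tatgcacTTCCggtgt, -0.31 for CPD and -0.072 for 6-4PP in tatgcacTTCCggtat, and -0.16 for 6-4PP in tatgcatacTTCCcgt.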
